A study of Mus musculus with 10 samples.

Results

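The GIMAP genes encode the GTPases of immunity-associated proteins, a family of small GTP-binding proteins found in lymphocytes. The members were taken by symbol from a deposited gene table of an RNA sequencing experiment in mouse Th17 cells. All 8 listed members, Gimap1, Gimap3, Gimap4, Gimap5, Gimap6, Gimap7, Gimap8 and Gimap9, were found among 17493 genes, and 0 other rows of the table carried a Gimap symbol. The experiment compared Th17 cultures given TMP269, a small-molecule inhibitor of class IIa histone deacetylases, with DMSO cultures labelled as controls, with 2 libraries in each group. All 4 cultures began as naive CD4+ T cells from C57BL/6 spleen, which were activated with anti-CD3 and anti-CD28 under IL-6 (20 ng/mL) and TGF-beta (2.5 ng/mL) and grown for 48 to 72 h. The sources used here give neither the TMP269 dose and exposure time nor the age or number of the mice behind each library. The p-values therefore measure the spread between these libraries, which may be technical.

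GIMAP proteins share a GTP-binding domain of the kind first described in the plant protein AIG1, and most sit on the cytosolic face of intracellular membranes. They are abundant in resting T cells, and loss of single members in rodents shortens the life of peripheral lymphocytes. In mouse the genes lie side by side in 1 cluster on chromosome 6, in the order Gimap8, Gimap9, Gimap4, Gimap6, Gimap7, Gimap1, Gimap5 and Gimap3. They are described in that order or by what each is known to do.

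Values are normalised reads, that is, read counts divided by 1 size factor per library, so the values of 1 gene can be compared across libraries. Levels of different genes were not compared, because no transcript lengths were used. The libraries held 20837231 and 23259102 reads with TMP269 and 25321455 and 20007042 reads with DMSO. DMSO replicate 2 stood apart in its share of ribosomal RNA gene reads (Rn45s), 2.2% against 0.716% to 1.12% in the other libraries, so counts are also given without it. Of 13 T cell marker genes, 2 rose with TMP269 by limma and 11 were not called, and the sum over these markers was 92822 and 95329.9 normalised reads with TMP269 and 83700.3 and 90431 with DMSO. Of 6 Th17 marker genes, all expressed in these libraries, 1 rose and 3 fell by limma. Over all tested genes, limma called 12.8% higher and 14.7% lower. Il17a, the signature cytokine gene, was at 750 and 786 normalised reads with TMP269 and 1888 and 1949 with DMSO. In bulk RNA, fewer cells of a type cannot be told apart from less RNA per cell.

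Most of the GIMAP family was higher with TMP269. By limma, with a gene called at an adjusted p under 0.05, 5 of 8 members rose, namely Gimap8, Gimap9, Gimap4, Gimap6 and Gimap3, where 12.8% of the 12535 tested genes were called higher. The rises were between 1.22-fold and 1.43-fold. With edgeR the count was also 5 (13.2% of tested genes). By limma, edgeR or DESeq2, 0 members were called lower, where 14.7% of tested genes were called lower by limma and 14.0% by edgeR. At an unadjusted limma p under 0.05, 1 member, Gimap7, was lower. Both TMP269 libraries lay above both DMSO libraries in 6 members (32.6% of tested genes) and below both in Gimap7 (34.0% of tested genes), and only Gimap1 had overlapping groups. The median log2 fold change of the 8 members was 0.30, against 0.00 for all tested genes, whose quartiles were -0.23 and 0.26. The members were chosen with earlier results of these data known, so these counts and this median are not independent evidence of a rise. The number called higher was 3 without TMP269 replicate 1, 3 without TMP269 replicate 2 and 4 without DMSO replicate 2.

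**Figure D1:**
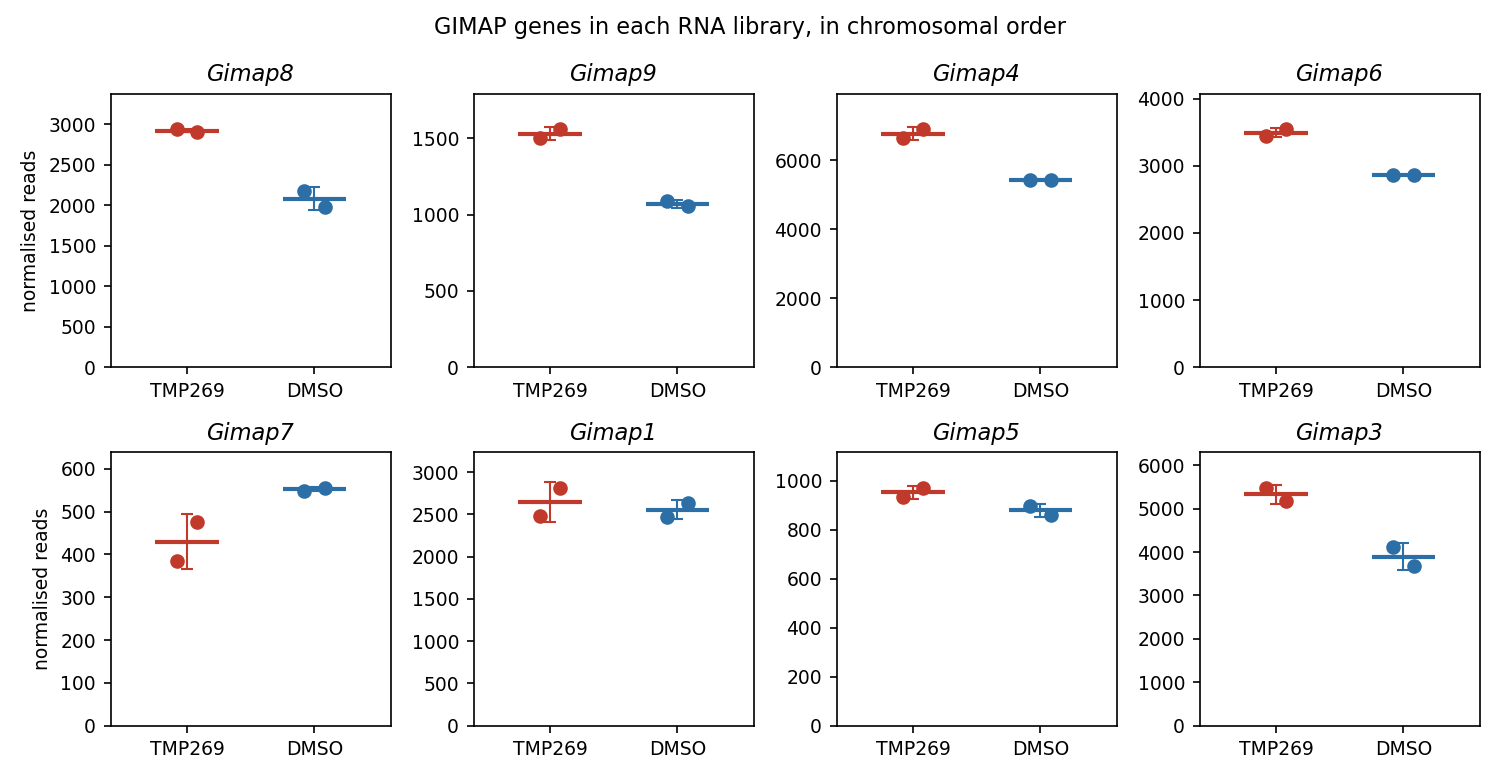
Normalised reads (vertical axis, from 0) of the 8 GIMAP genes, with TMP269 and DMSO side by side in each panel. Points are single libraries, horizontal lines are group means and error bars are SD (n = 2 each). The TMP269 points lie above the DMSO points in 6 panels, below them in Gimap7 and overlap them in Gimap1.

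Summed over the family, the normalised reads were 23812 and 24348 with TMP269 and 19578 and 19063 with DMSO. As a share of all reads in a library, which does not depend on the size factors, the family made up 0.111% (95% Wilson interval 0.109% to 0.112%) and 0.11% (0.109% to 0.112%) with TMP269. It made up 0.0859% (0.0848% to 0.0871%) and 0.079% (0.0778% to 0.0802%) with DMSO. Both TMP269 shares were above both DMSO shares. These intervals cover counting error only, since PCR copies of a molecule are not independent reads. A share of all reads amounts to scaling the libraries to equal totals, which shifted genes in general upward with TMP269. Under that scaling the median log2 fold change was 0.10 for all tested genes and 0.41 for the members. In the main setting these medians were 0.00 and 0.30.

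Promoter windows of 3 members that rose (Gimap9, Gimap3 and Gimap6) and of Gimap7, whose values were lower, are shown here so that the letters can be read beside the values. Each window, from RefSeq on build GRCm38.p6, runs from 250 bases before the gene's start to 50 bases from the start on, along the strand of the gene. Capitals mark matches, on either strand, to short motifs of factors active in T cells, namely Runx (TGTGGT), ETS (CGGAAG), FOXO (TGTTTA) and Ikaros (TGGGAA), and to the MEF2 motif, which was searched by its usual consensus. MEF2 factors are known partners of class IIa histone deacetylases.
Gimap9 (chr6:48675885-48676184, plus strand): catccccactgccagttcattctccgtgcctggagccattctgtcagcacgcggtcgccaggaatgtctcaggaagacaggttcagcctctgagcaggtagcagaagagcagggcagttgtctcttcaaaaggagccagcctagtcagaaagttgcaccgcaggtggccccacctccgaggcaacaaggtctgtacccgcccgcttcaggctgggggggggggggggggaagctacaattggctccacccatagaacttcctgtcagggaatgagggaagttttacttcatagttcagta
Gimap3 (chr6:48770802-48771101, minus strand): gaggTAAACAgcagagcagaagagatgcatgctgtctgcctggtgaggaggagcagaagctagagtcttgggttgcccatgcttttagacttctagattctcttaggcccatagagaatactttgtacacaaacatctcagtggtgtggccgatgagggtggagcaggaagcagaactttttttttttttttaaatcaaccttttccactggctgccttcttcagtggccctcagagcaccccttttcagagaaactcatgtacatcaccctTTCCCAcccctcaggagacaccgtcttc
Gimap6 (chr6:48708195-48708494, minus strand): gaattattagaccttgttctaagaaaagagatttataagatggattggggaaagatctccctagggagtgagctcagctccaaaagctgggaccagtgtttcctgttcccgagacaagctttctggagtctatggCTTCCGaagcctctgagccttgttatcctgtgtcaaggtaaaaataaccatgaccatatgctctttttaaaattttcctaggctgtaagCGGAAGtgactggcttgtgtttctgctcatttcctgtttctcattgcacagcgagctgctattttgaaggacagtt
Gimap7 (chr6:48718371-48718670, plus strand): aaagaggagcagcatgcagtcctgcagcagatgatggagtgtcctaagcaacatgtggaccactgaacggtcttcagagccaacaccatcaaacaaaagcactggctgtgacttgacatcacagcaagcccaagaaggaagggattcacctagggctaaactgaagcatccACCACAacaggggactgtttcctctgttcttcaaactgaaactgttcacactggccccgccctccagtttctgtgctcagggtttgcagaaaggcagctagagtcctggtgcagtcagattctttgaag

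All 8 members had a window in the RefSeq table, 9 windows in all because Gimap8 has 2 that overlap. The Gimap6 window held 2 ETS matches, at 115 and 26 bases before the start. The Gimap3 window held a FOXO match 246 bases before the start and an Ikaros match 22 bases after it. The Gimap7 window held a single Runx match 79 bases before the start, and the Gimap9 window held no match to any of the 5 motifs. ETS matches stood in 4 of 9 member windows, from 3 genes, against 16.9% of the 32851 windows of all genes, and the overlapping Gimap8 windows share 1 site. Runx matches stood in 3 of 9 member windows (16.8% of all windows). These were the windows of Gimap7, of Gimap4, which rose, and of Gimap1, which was not called. FOXO matches stood in 2 member windows (13.4%), Ikaros matches in 1 (25.6%) and MEF2 matches in 0 (3.19%). A match describes letters in the window and does not show that a factor binds there. The member windows held between 2 and 8 CpG dinucleotides and had a GC content of 43.3% to 57.3%, while the medians of all windows were 7 CpG and 52.7% GC.

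Gimap9, whose function is little described, had the largest rise of the 8 members in this fit. Its values were 1499.7 and 1559 normalised reads with TMP269, against 1089 and 1053 with DMSO. The TMP269 libraries were both higher, and the gap between replicates was 3.92% with TMP269 and 3.4% with DMSO. The log2 fold change was 0.51 ± 0.08 (SE, n = 2 each), a 1.43-fold rise with a 95% interval of 1.26 to 1.62 (limma adjusted p = 0.00311). In the reference annotation, on build GRCm38.p6, a non-coding gene, Gm46958, overlaps Gimap9. No source used here gives the strand setting of the counting, so reads from the stretch that this pair shares cannot be told apart.

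Gimap8, the longest family member, carries several GTP-binding domains where most relatives carry a single one. It was at 2939.5 and 2907 normalised reads with TMP269 and at 2182 and 1982 with DMSO. The pair of TMP269 libraries was nearly equal, and the DMSO pair, though 10.1% apart, stayed below it. The log2 fold change was 0.49 ± 0.08 (SE, n = 2 each), a 1.41-fold rise with an interval of 1.24 to 1.6 (limma adjusted p = 0.00361).

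Gimap5 and Gimap3 are neighbours at one end of the cluster and close relatives in sequence. Gimap5 is the member best known for lymphocyte survival, since rats and mice without it lose peripheral T cells, and its protein is found on lysosomes. Gimap3 is known in the mouse as a membrane protein of mitochondria and the endoplasmic reticulum. Gimap3 was at 5482 and 5177 normalised reads with TMP269 and at 4108 and 3676 with DMSO, a log2 fold change of 0.45 ± 0.09 (SE, n = 2 each, 1.37-fold, limma adjusted p = 0.00586). Gimap5 was at 933 and 972 normalised reads with TMP269 and at 899 and 859 with DMSO. Its groups did not overlap, but the gap between them was of the size of the gap between replicates, and it was not called (log2 fold change 0.12 ± 0.09, SE, n = 2 each, limma adjusted p = 0.354). The 95% interval for Gimap5 ran from 0.944-fold to 1.24-fold. Within each library there were 5.87 and 5.33 Gimap3 reads per Gimap5 read with TMP269 and 4.57 and 4.28 with DMSO. These ratios did not overlap between the groups and do not depend on library scaling, but 2 against 2 values cannot give a two-sided exact p below 0.333. No source used here says how reads matching several relatives were counted, so the split of reads between close relatives is uncertain.

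Gimap4, known in the mouse for its influence on how fast T cells die once apoptosis has begun, rose by a smaller amount. It was at 6648 and 6900.1 normalised reads with TMP269 and at 5420.2 and 5441 with DMSO. The DMSO libraries were 0.381% apart and the TMP269 libraries 3.79% apart, so the groups were well separated. The log2 fold change was 0.32 ± 0.08 (SE, n = 2 each), a 1.25-fold rise with an interval of 1.11 to 1.41 (limma adjusted p = 0.0156). With a TMP269 library left out it was not called (limma adjusted p = 0.061 without replicate 1 and 0.109 without replicate 2).

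Gimap6, whose protein binds an ATG8-family protein of the autophagy machinery, also rose by less than Gimap8, Gimap9 and Gimap3 in its point estimate. It was at 3441 and 3543 normalised reads with TMP269 and at 2856 and 2859 with DMSO. Both TMP269 libraries were above both DMSO libraries, which differed by 0.0934%. The log2 fold change was 0.29 ± 0.07 (SE, n = 2 each), a 1.22-fold rise with an interval of 1.09 to 1.37 (limma adjusted p = 0.0205). It was not called when TMP269 replicate 1, TMP269 replicate 2 or DMSO replicate 2 was left out (limma adjusted p = 0.0792, 0.126 and 0.0652).

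Gimap1, which mature T and B cells of the mouse need for their survival, was not called. It was at 2484 and 2816 normalised reads with TMP269 and at 2475 and 2638 with DMSO, and the lower library of each group differed by less than the replicates within either group. The log2 fold change was 0.05 ± 0.09 (SE, n = 2 each, limma adjusted p = 0.706), and its 95% interval covered 0.901-fold to 1.19-fold. That interval lies below the estimates of all 5 members that rose, but the difference between members was not tested.

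Gimap7 was the member with lower values under TMP269. Human GIMAP7 is known as an active GTPase that forms dimers and can stimulate GTP hydrolysis by another family member. Gimap7 was at 384 and 475 normalised reads with TMP269 and at 549 and 556 with DMSO. Both TMP269 libraries lay below both DMSO libraries, but they were 23.5% apart from each other, the widest replicate gap in the family. The DMSO libraries were 1.31% apart. The log2 fold change was -0.37 ± 0.13 (SE, n = 2 each), with an interval of 0.636-fold to 0.942-fold, and Gimap7 was not called (limma adjusted p = 0.0566). Without TMP269 replicate 1 its log2 fold change was -0.22 (limma adjusted p = 0.379), and without TMP269 replicate 2 it was -0.52 and passed the threshold (0.0161), so the size rests on which TMP269 library is kept. Gimap7 also had the fewest reads of the family, 372 to 610 per library, for which counting alone gives an SD of 5.18% to 4.05%. The most deeply covered member, Gimap4, had 4511 to 7265 reads and a counting SD of 1.49% to 1.17%.

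**Figure D2:**
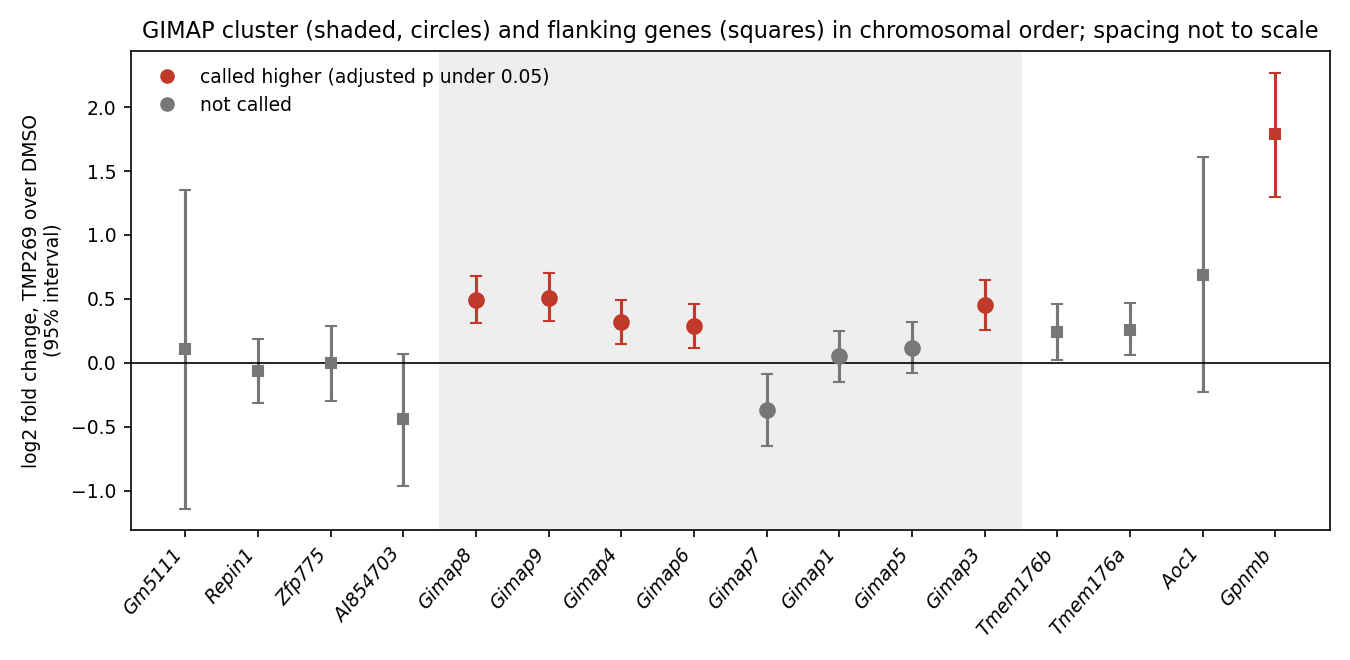
Log2 fold change of TMP269 over DMSO (vertical axis, with 95% intervals from limma) for the GIMAP genes (circles, shaded) and the nearest measured genes on either side (squares), in their order along the chromosome with spacing not to scale. Red marks genes called higher. Gimap7, at -0.37, sits between Gimap6 at 0.29 and Gimap1 at 0.05.

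The make-up of the family's reads differed between the libraries of the groups, which was not tested. Gimap7 made up 1.61% and 1.95% of all GIMAP reads with TMP269, against 2.8% and 2.92% with DMSO. For each read of Gimap4, which rose, there were 0.0578 and 0.0688 reads of Gimap7 with TMP269 and 0.101 and 0.102 with DMSO. Gimap1 made up 10.4% and 11.6% of GIMAP reads with TMP269 and 12.6% and 13.8% with DMSO, while Gimap5 made up 3.92% and 3.99% with TMP269 and 4.59% and 4.5% with DMSO. In these 3 genes, and by a small margin in Gimap6 (14.5% and 14.5% with TMP269, 14.6% and 15% with DMSO), both TMP269 shares were below both DMSO shares. Shares within a library add up to the whole, so they restate the fold changes of members relative to each other. A lower share is therefore not lower expression, and the normalised reads of Gimap5 and Gimap6 were higher in both TMP269 libraries. Gimap9 made up 6.3% and 6.4% with TMP269 and 5.56% and 5.52% with DMSO, and Gimap8 made up 12.3% and 11.9% with TMP269 and 11.1% and 10.4% with DMSO. In Gimap8, Gimap9 and Gimap3 both TMP269 shares were above both DMSO shares, and Gimap3 made up 23.0% and 21.3% with TMP269 and 21.0% and 19.3% with DMSO. Gimap4 took the most reads of the family, at 27.9% and 28.3% with TMP269 and 27.7% and 28.5% with DMSO, and its groups overlapped. A share of reads also depends on transcript length, so it orders libraries within a gene and not genes within a library.

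**Figure D3:**
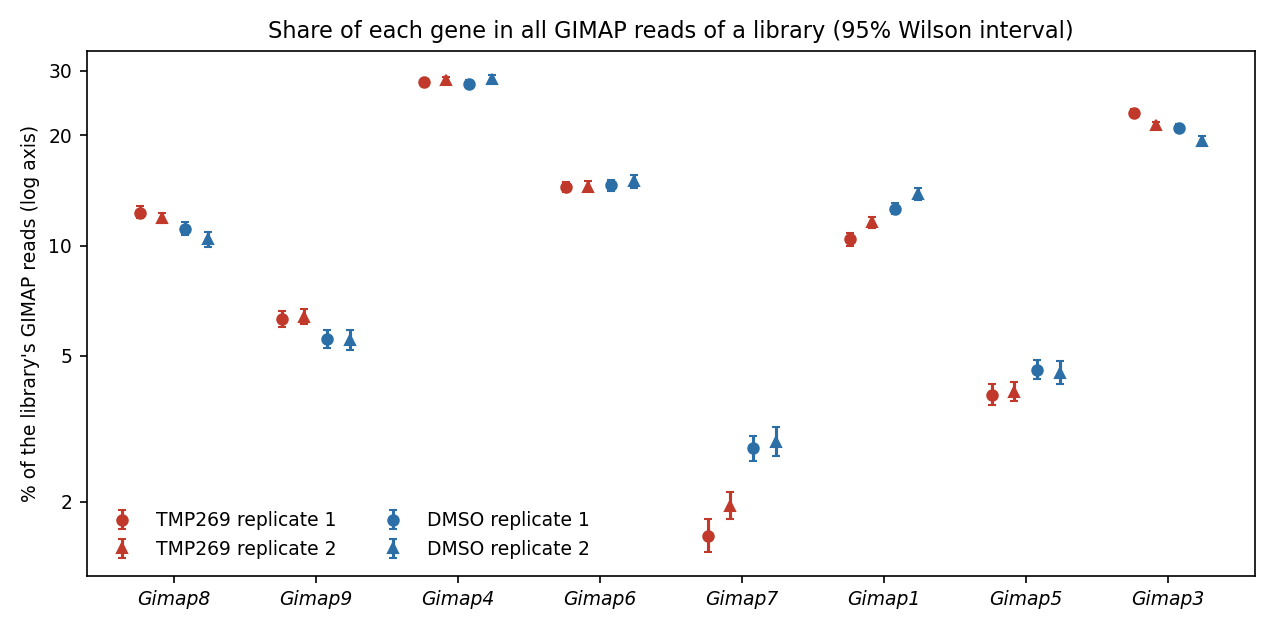
Percentage of a library's GIMAP reads assigned to each gene (log axis), for TMP269 replicates 1 and 2 and DMSO replicates 1 and 2, with 95% Wilson intervals that cover counting error only. Gimap7 lies at 1.61% and 1.95% in the TMP269 libraries and at 2.8% and 2.92% in the DMSO libraries.

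The genes that flank the cluster were set beside it. Before Gimap8 in the reference annotation lie the zinc finger genes Repin1 and Zfp775, at 523 and 473 and at 321 and 274 normalised reads with TMP269 and at 542 and 499 and at 297 and 299 with DMSO. Neither was called (limma adjusted p = 0.694 and 0.982), and the groups of both overlapped. The pseudogene AI854703 and the gene model Gm5111 on the same side were not called either (limma adjusted p = 0.176 and 0.901). After Gimap3 lie Tmem176b and Tmem176a, a pair of related membrane protein genes. Tmem176b was at 984 and 1006 normalised reads with TMP269 and at 899 and 789 with DMSO, and Tmem176a was at 832 and 819.7 with TMP269 and at 681 and 696 with DMSO. Both were higher in both TMP269 libraries and neither was called (log2 fold change 0.24 ± 0.10 and 0.26 ± 0.09, SE, n = 2 each, limma adjusted p = 0.0969 and 0.06). Tmem176a passed with edgeR (adjusted p = 0.0461), limma-voom (0.0465) and equal totals (0.0238), and Tmem176b was at a log2 fold change of 0.15 without DMSO replicate 2. These genes overlap each other in the annotation, so reads from the shared stretch are hard to assign. The length of that stretch was not measured.

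Beyond the Tmem176 pair, Aoc1, which encodes diamine oxidase, was at 17.6 and 27.5 normalised reads with TMP269 and at 16.2 and 10.9 with DMSO and was not called (limma adjusted p = 0.233). Gpnmb, a membrane glycoprotein gene known from macrophages and pigment cells, was the only one of the 8 flanking genes that limma called. It was at 135 and 177 normalised reads with TMP269 and at 42.3 and 45.8 with DMSO, a 3.46-fold rise (limma adjusted p = 0.000992). Macrophage and monocyte markers summed to 304 and 358 normalised reads with TMP269 and to 137 and 116 with DMSO over the 6 of 7 markers in the table, and none of the 6 was at 0 in every library. Cd68, which also marks lysosomes of other cells, gave 263 and 299 of these reads with TMP269 and 97.2 and 83.2 with DMSO. Of the 3 markers tested, Cd68 rose, and Csf1r and Itgam were not called (log2 fold change -0.18 and -0.23). The part of such cells in the Gpnmb rise was not tested.

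Other cell types known for GIMAP expression were checked by their markers. B cells express several GIMAP genes, and all 8 B cell markers were in the table, with 0 at 0 in every library. Their sum was 2562 and 2532 normalised reads with TMP269 and 4729 and 4805 with DMSO. By limma 6 of the 8 markers fell and 2 were not called, where 14.7% of all tested genes were called lower. The cultures had been started from purified CD4+ T cells. The part of B cells in the GIMAP values was not tested. Endothelial markers summed to 802 and 1059 normalised reads with TMP269 and to 971 and 988 with DMSO, of which Pecam1, also present on leukocytes, gave nearly all, and Cdh5, the defining endothelial cadherin gene, had at most 2 reads in any library. CD8 T cell markers summed to 315 and 427 normalised reads with TMP269 and to 299 and 391 with DMSO. NK cell markers summed to 71.3 and 201 normalised reads with TMP269 and 117 and 221 with DMSO, and dendritic cell markers to 133 and 167 with TMP269 and 116 and 116 with DMSO. Neutrophil markers (at most 2.7 normalised reads) and erythroid markers (at most 12.3) were near 0.

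The GIMAP genes are part of the expression programme of resting T cells, so a list of 20 other genes of that state was set beside them. By limma 10 of 20 rose, where 12.8% of all tested genes were called higher, and 0 fell, where 14.7% were called lower. Among the 20, 0 were lower at an unadjusted limma p under 0.05 and 0 were lower by edgeR or DESeq2. Their median log2 fold change was 0.29. Those that rose were Ccr7, Foxo1, Foxp1, Tcf7, Bach2, Btg1, Btg2, Slfn2, Cd27 and Tsc1. Foxp1, a transcription factor gene of T cell quiescence, was at 5706 and 5429.9 normalised reads with TMP269 and at 3529 and 3320.5 with DMSO, a 1.63-fold rise (limma adjusted p = 0.000733). Slfn2, which keeps mouse T cells quiescent, was at 6553 and 6831 normalised reads with TMP269 and at 4215 and 4505 with DMSO, a 1.54-fold rise (limma adjusted p = 0.00127). The list was chosen with results of these libraries known, so its direction is not independent evidence. Without TMP269 replicate 2, 10 rose and 1 fell, and without DMSO replicate 2, 8 rose.

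GIMAP proteins of the mouse have been linked to the BCL2 family, the regulators of mitochondrial cell death. Of 18 listed BCL2 family genes 16 were tested, 6 rose and 2 fell by limma, and the median log2 fold change was 0.09. The share that rose was 37.5%, against 12.8% of all tested genes, and the share that fell was 12.5%, near the 14.7% of all tested genes. The rises of the death-promoting genes Bbc3, which encodes PUMA, and Pmaip1, which encodes NOXA, were larger than any in the GIMAP family. Bbc3 was at 982 and 1182 normalised reads with TMP269 and at 294 and 316 with DMSO (3.53-fold, limma adjusted p = 0.000127). Pmaip1 was at 1041 and 1084 normalised reads with TMP269 and at 418 and 379.9 with DMSO (2.66-fold, limma adjusted p = 0.000127). The others that rose were Bcl2l1, Bcl2l2, Bmf and Bax. The 2 that fell were Bok, at 19.6 and 21.8 normalised reads with TMP269 and 47.7 and 43.4 with DMSO, and Bcl2a1d, a relative of the survival gene Bcl2a1a with near-identical copies, at 107 and 121 with TMP269 and 175 and 162 with DMSO. Both falls were lost with DESeq2 (adjusted p = 0.114 and 0.121), without TMP269 replicate 1 (limma adjusted p = 0.0803 and 0.17), without DMSO replicate 1 (0.0504 and 0.113) and without DMSO replicate 2 (0.0549 and 0.0808). The Bcl2a1d fall was also lost with equal totals (0.0843) and with no filter (0.0534).

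The interferon-inducible GTPases, another set of immune GTP-binding proteins, were split. Of 18 tested, 2 rose, 3 fell and 13 were not called by limma, and the median log2 fold change was 0.06. Iigp1 was at 2489.9 and 2207 normalised reads with TMP269 and at 1719 and 1979 with DMSO (1.27-fold, limma adjusted p = 0.0308), but was not called when TMP269 replicate 1 (0.168) or DMSO replicate 1 (0.113) was left out. Mx2 had few reads and passed the filter on low values only through its TMP269 libraries, so its call is not read as a result. It was at 16.5 and 21.8 normalised reads with TMP269 and 8.1 and 6.03 with DMSO (limma adjusted p = 0.0494, but 0.124 without DMSO replicate 2, 0.063 with no filter and 0.0508 with a pseudocount of 0.5 or with TMM factors). The guanylate-binding protein genes Gbp7 and Gbp3 fell to 0.603-fold and 0.608-fold (limma adjusted p = 0.00256 and 0.00428), and Gbp5 fell as well. With any 1 of the 4 libraries left out, 2 genes of this list fell rather than 3, and Mx2 had too few reads to be tested without either TMP269 library. The shares called, 11.1% higher with Mx2 included and 16.7% lower, were near those of all tested genes.

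To place the family among all genes, each gene's log2 values were centred over the 4 libraries and compared with the mean centred profile of the 8 members by Euclidean distance. The nearest named genes outside the family were Mgea5, which encodes the enzyme that removes O-GlcNAc, at a distance of 0.0126 on the log2 scale, Zfp84, a zinc finger gene, at 0.013, and Antxr2, an anthrax toxin receptor gene, at 0.0141. Mgea5 was at 6759 and 7085 normalised reads with TMP269 and at 6021 and 5849 with DMSO. Mgea5, Zfp84 and Antxr2 were themselves not called (limma adjusted p = 0.0629, 0.101 and 0.121). Among members, Gimap6 was nearest to the family's own mean, at 0.0664, and 89 tested genes outside the family lay nearer. Gimap7 was farthest, at 0.625, with 9436 tested genes nearer. With 4 libraries such a profile is shared by many genes.

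**Figure D4:**
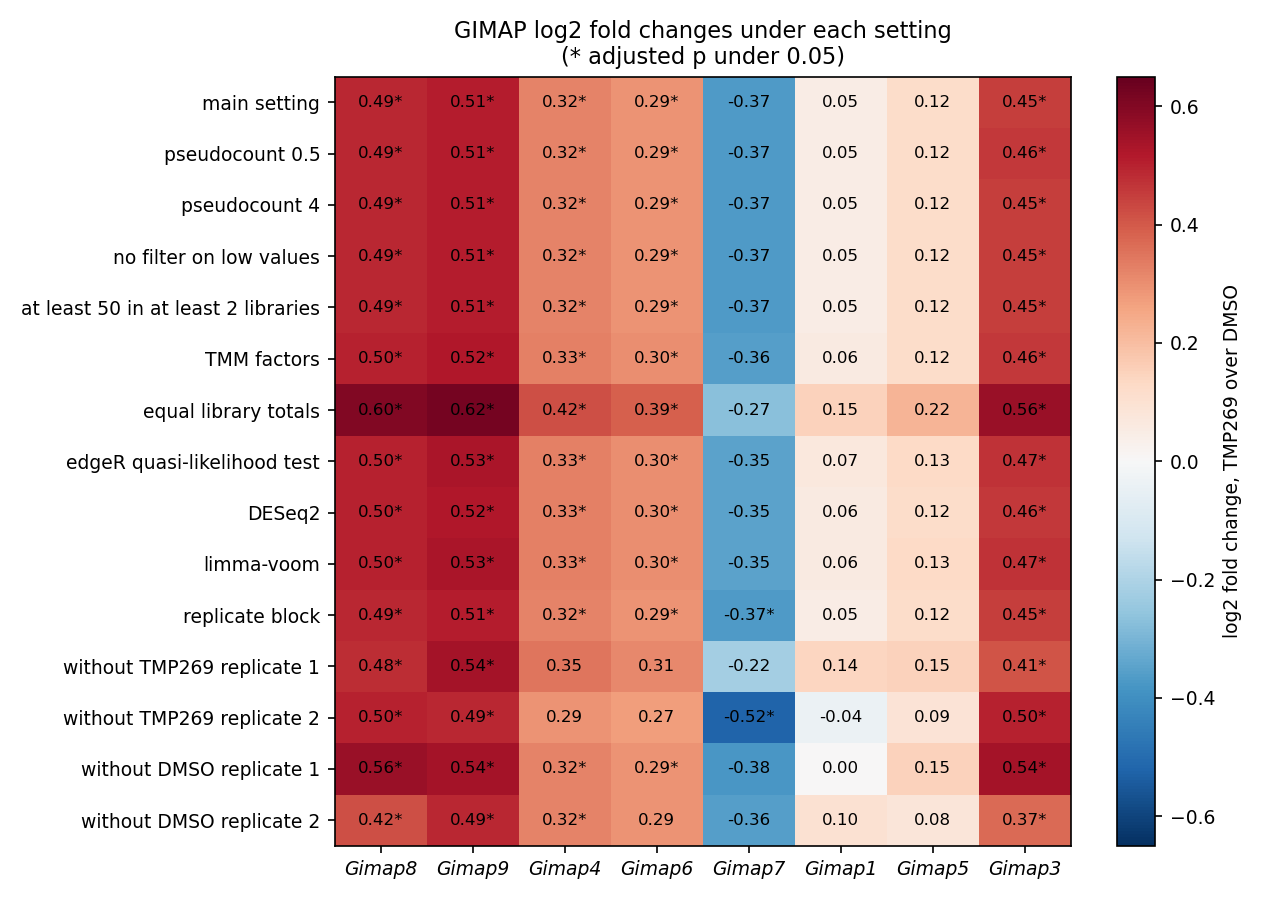
Log2 fold change of TMP269 over DMSO for each GIMAP gene (columns, in chromosomal order) under the main setting and each alternative (lines of the grid), with the value printed in each cell and coloured from blue (lower with TMP269) to red (higher). Asterisks mark adjusted p under 0.05. Gimap3, Gimap8 and Gimap9 carry an asterisk throughout, and Gimap7 is negative throughout.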

How the data were processed

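Polyadenylated RNA was sequenced in 2 TMP269 and 2 DMSO libraries. The control columns are headed WT, a heading that the descriptions of the DMSO samples give. The chromatin libraries of the series are not analysed here. The submitters' processing notes name HTSeq, DESeq2, Bowtie2, CASAVA 1.4, TopHat2 2.1.0 and build mm9, without their roles. The values deposited by the authors were a normalised signal, and multiplying each library by its own factor (0.829 to 1.11) gave whole reads for 100% of values within 1e-06. Genes with at least 10 normalised reads in at least 2 libraries were tested, and all 8 members passed in every library. The test was limma 3.58.1 (R 4.3.3) on log2 of the value plus a pseudocount of 1, with the variance trended on the mean and no covariate, and two-sided p-values adjusted by Benjamini-Hochberg over 12535 genes. Fold changes are on that scale, which understates changes of genes with few reads. The fit was tested on simulated data with a dispersion common to all genes and changes larger than those estimated for the GIMAP genes. That test therefore does not cover changes as small as theirs. Alternatives were edgeR 4.0.16 and DESeq2 1.42.0 on the recovered reads, limma-voom, TMM factors, equal totals, other filters and pseudocounts, a replicate block, and each library left out. With a library left out, the single remaining library is taken to have the variance of the rest. Replicates differed beyond sampling noise (chi-square per degree of freedom 11.3 for TMP269 and 21.9 for DMSO). Named genes were the members, the 4 nearest measured genes on each side, up to 2 rises and 2 falls per list by smallest p, and the 3 genes nearest in profile. Members and lists were chosen with earlier results of these data known. Neighbours came from a RefSeq table on GRCm38.p6, and so do the promoter coordinates.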

Additional observations from a re-analysis of the deposited data

How the results depend on the processing

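Gimap3, Gimap8 and Gimap9 were called higher under all 14 alternatives, with log2 fold changes of 0.37 to 0.56, 0.42 to 0.60 and 0.49 to 0.62. The number of members called higher was 5 in each alternative that kept all 4 libraries, and 3 to 5 with 1 library left out. The number called lower was 0 to 1 with 1 library left out and 1 with a replicate block. Gimap1 ranged from -0.04 (without TMP269 replicate 2) to 0.14 (without TMP269 replicate 1) with 1 library left out. Over all genes, calls higher and lower numbered 3008 and 3352 with a replicate block, and 1042 genes were lower with equal library totals, where higher genes made up 67.3% of calls against 46.5% and the median log2 fold change was 0.10. With 1 library left out, 1040 to 1789 genes were higher and 966 to 1823 lower. Without TMP269 replicate 1, 1132 were lower, and without DMSO replicate 2, 1040 were higher and 966 lower. The replicate numbers share only a number. Deviations of same-numbered libraries correlated at 0.371, but with 2 pairs this does not establish a pairing, and under the block Gimap7, Tmem176b and Tmem176a passed (adjusted p = 0.00176, 0.00842 and 0.00486). Among flanking genes, with 1 library left out, Gm5111 ranged from -0.53 to 0.32, Repin1 from -0.14 to 0.01 and Zfp775 from -0.12 to 0.11. Repin1 stood at 0.04 with equal totals. Zfp775 stood at 0.10 with equal totals, 0.01 with edgeR or DESeq2 and 0.00 with TMM factors, limma-voom or without DMSO replicate 2. For the lists, the alternatives left 0 to 3 falls among BCL2 genes and 0 to 4 rises among interferon-inducible GTPases. The cause of these changes was not tested. Gimap7 has the fewest reads of the family (counting SD of 4.05% to 5.18%), and its TMP269 libraries were 23.5% apart.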
